A study of Homo sapiens with 14 samples.

Results

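The levels of 10 genes of the YAP and TEAD pathway, YAP1, WWTR1, TEAD1, CCN1, CCN2, ANKRD1, AMOTL2, AXL, AJUBA and LATS2, were followed in SH-EP cells, an established human neuroblastoma cell line. The genes were taken as a list, chosen with earlier results of these data known, and found by symbol among the 61533 genes of the count table. All 10 were present, and all 10 passed the filter on low counts together with 16056 genes in all. PolyA RNA was sequenced from 4 groups of cultures: n-Myc SPARK-ON cells with lenalidomide (3 libraries), n-Myc SPARK-ON cells in DMSO (3 libraries), n-Myc control cells with lenalidomide (2 libraries) and n-Myc control cells in DMSO (3 libraries). Per the series design, the SPARK-ON cells are 1 clone whose n-Myc stays below the threshold for phase separation until lenalidomide is added, and its concentration is meant to stay the same. The control cells carry n-Myc without SPARK-ON and serve to show what lenalidomide does by itself. Any difference between SPARK-ON and control cells is therefore also a difference between 1 clone and another n-Myc line. No dose or time was read from the labels, and baseline SH-EP cells were not analysed here.

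YAP1 and WWTR1, whose protein is also called TAZ, encode coactivators that do not bind DNA themselves and act through the TEAD transcription factors, of which TEAD1 is one. The Hippo kinase cascade ends in the LATS kinases, which phosphorylate both coactivators and keep them out of the nucleus, and several targets of the pathway, among them AMOTL2, AJUBA and LATS2, encode proteins that feed back on that cascade. CCN1, CCN2 and ANKRD1 are widely used readouts of YAP activity, and YAP activity is a known trait of mesenchymal-type neuroblastoma lines such as SH-EP.

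The TEAD factors bind the bases GGAATG, which read CATTCC on the other strand. These letters were looked for on both strands in the 250 bases before the annotated starts of the genes, because a reader can then see what the pathway's best known target promoter looks like beside those of the other genes. The sequences are RefSeq's on GRCh38.p14, written 5′ to 3′ on the strand of the gene, with the searched letters in capitals. Windows were at hand for 8 of the 10 genes, not for CCN1 and TEAD1. The CCN2 window held GGAATG 3 times, at 169, 104 and 95 bases before the start. It is given here for 249 bases, chr6:131951374-131951622 on the minus strand.
CCN2: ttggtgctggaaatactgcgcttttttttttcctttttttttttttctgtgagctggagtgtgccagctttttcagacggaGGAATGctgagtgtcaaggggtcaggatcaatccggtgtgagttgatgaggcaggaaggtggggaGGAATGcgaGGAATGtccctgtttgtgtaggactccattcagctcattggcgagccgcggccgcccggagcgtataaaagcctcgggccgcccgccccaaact
ANKRD1 held the letters 2 times, at 220 and 128 bases before its start, shown in 30 bases each (chr10:90921290-90921319 and chr10:90921198-90921227, minus strand).
ANKRD1, far match: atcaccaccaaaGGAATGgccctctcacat
ANKRD1, near match: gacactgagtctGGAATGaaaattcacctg
YAP1 (chr11:102110273-102110302, plus strand), AMOTL2 (chr3:134374499-134374528, minus strand), AXL (chr19:41226531-41226560, plus strand) and AJUBA (chr14:22976884-22976913, minus strand) each held 1 match, at 162, 69, 212 and 59 bases before a start. In AMOTL2, AXL and AJUBA that start is the second of 2 in the RefSeq table. Exons annotated in GENCODE 29 covered 250 bases of this AJUBA window and 147 of this AMOTL2 window, both exons of the gene itself. They covered 189 bases of the ANKRD1 window, and 250 of the YAP1 window, there of another gene, AP001527.2.
YAP1: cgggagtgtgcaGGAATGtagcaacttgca
AMOTL2: ctgaaactctcaCATTCCtggcatagcagc
AXL: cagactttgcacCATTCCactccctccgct
AJUBA: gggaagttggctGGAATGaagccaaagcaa
The windows of WWTR1 and LATS2 held no match. Over all 35116 windows in the table, 11.9% held the letters at least 1 time, 0.94% at least 2 times and 0.0826%, or 29 windows, at least 3 times. By gene, with the window of most matches, the shares of 27305 genes were 14.3%, 1.18% and 0.106%. A single match is thus not unusual, and 3 matches, as in CCN2, are rare. Of the 8 genes with a window, 6 held at least 1 match, in 6 of their 12 windows. Genes with 2 windows had more places for a match, and these counts were not tested. A match is a run of letters and not a measured binding site.

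Total counts ran from 6614671 in SPARK-ON lenalidomide replicate 3 to 21511684 in control DMSO replicate 3. At these depths a count of 0 would allow 0.143 to 0.441 CPM (3 reads; counting error only), and the 10 genes had between 22 and 6450 reads in a library. CPM is the count relative to the library size, scaled by edgeR's TMM method. Of the variance, 70.1% lay on the first principal component, which separated the SPARK-ON from the control libraries. SPARK-ON lenalidomide replicate 3 stood apart on the second component, and control DMSO replicate 1 on the third, at 38.9. The third component also split the 2 control lenalidomide libraries, with replicate 2 at 16.6 and replicate 1 at -20.8. All 7 mesenchymal markers were well measured, with a summed level of 1269 to 1458 CPM in SPARK-ON and 2493 to 2720 CPM in control libraries. Of the 8 adrenergic markers, 6 were below 1 CPM everywhere. The sum of all 8 was 5.0 to 8.73 CPM, and GATA3, at 4.74 to 8.73 CPM, made up most of it. MYCN, the gene of n-Myc, averaged 2508 ± 101 CPM in SPARK-ON cells with lenalidomide and 2277 ± 109 CPM in SPARK-ON cells in DMSO (SD, n = 3 each). It averaged 2546 ± 305 CPM in control cells with lenalidomide (SD, n = 2) and 2426 ± 292 CPM in control cells in DMSO (SD, n = 3). MYCN passed the test in none of the comparisons below in the fit of 11 libraries.

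Per kilobase of exon, the receptor gene AXL had the highest level of the 10 in every group, and the cardiac ankyrin repeat gene ANKRD1 the lowest. AXL averaged 67.9 ± 1.9 CPM per kb in SPARK-ON cells with lenalidomide, 60.7 ± 1.6 in SPARK-ON cells in DMSO, 63.8 ± 0.29 in control cells with lenalidomide and 59.9 ± 0.11 in control cells in DMSO. The secreted matricellular proteins CCN1 and CCN2 came next, between 24.4 and 30.7 CPM per kb by group mean, and TEAD1 after them, between 20.3 and 21.8. CCN1 and CCN2 overlapped over libraries in every group except control cells with lenalidomide, where CCN2 stood above CCN1. In the SPARK-ON groups the order then went AJUBA, AMOTL2, YAP1, WWTR1, LATS2 and ANKRD1, each gene above the next in every library of both groups. In the control groups WWTR1 stood directly after TEAD1, before AJUBA, AMOTL2 and YAP1, with AMOTL2 and YAP1 overlapping in both. In control cells in DMSO CCN2 and CCN1, CCN1 and TEAD1, TEAD1 and WWTR1, and AJUBA and AMOTL2 overlapped as well. LATS2 was the lowest but one in all groups, at 4.48 to 4.83 CPM per kb, and ANKRD1 the lowest, at 0.999 to 1.97. With the longest transcript in place of all exonic bases the places of AXL, LATS2 and ANKRD1 were the same, WWTR1 stood second in control DMSO cells, and TEAD1 and AJUBA changed places in SPARK-ON lenalidomide cells.

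**Figure D1:**
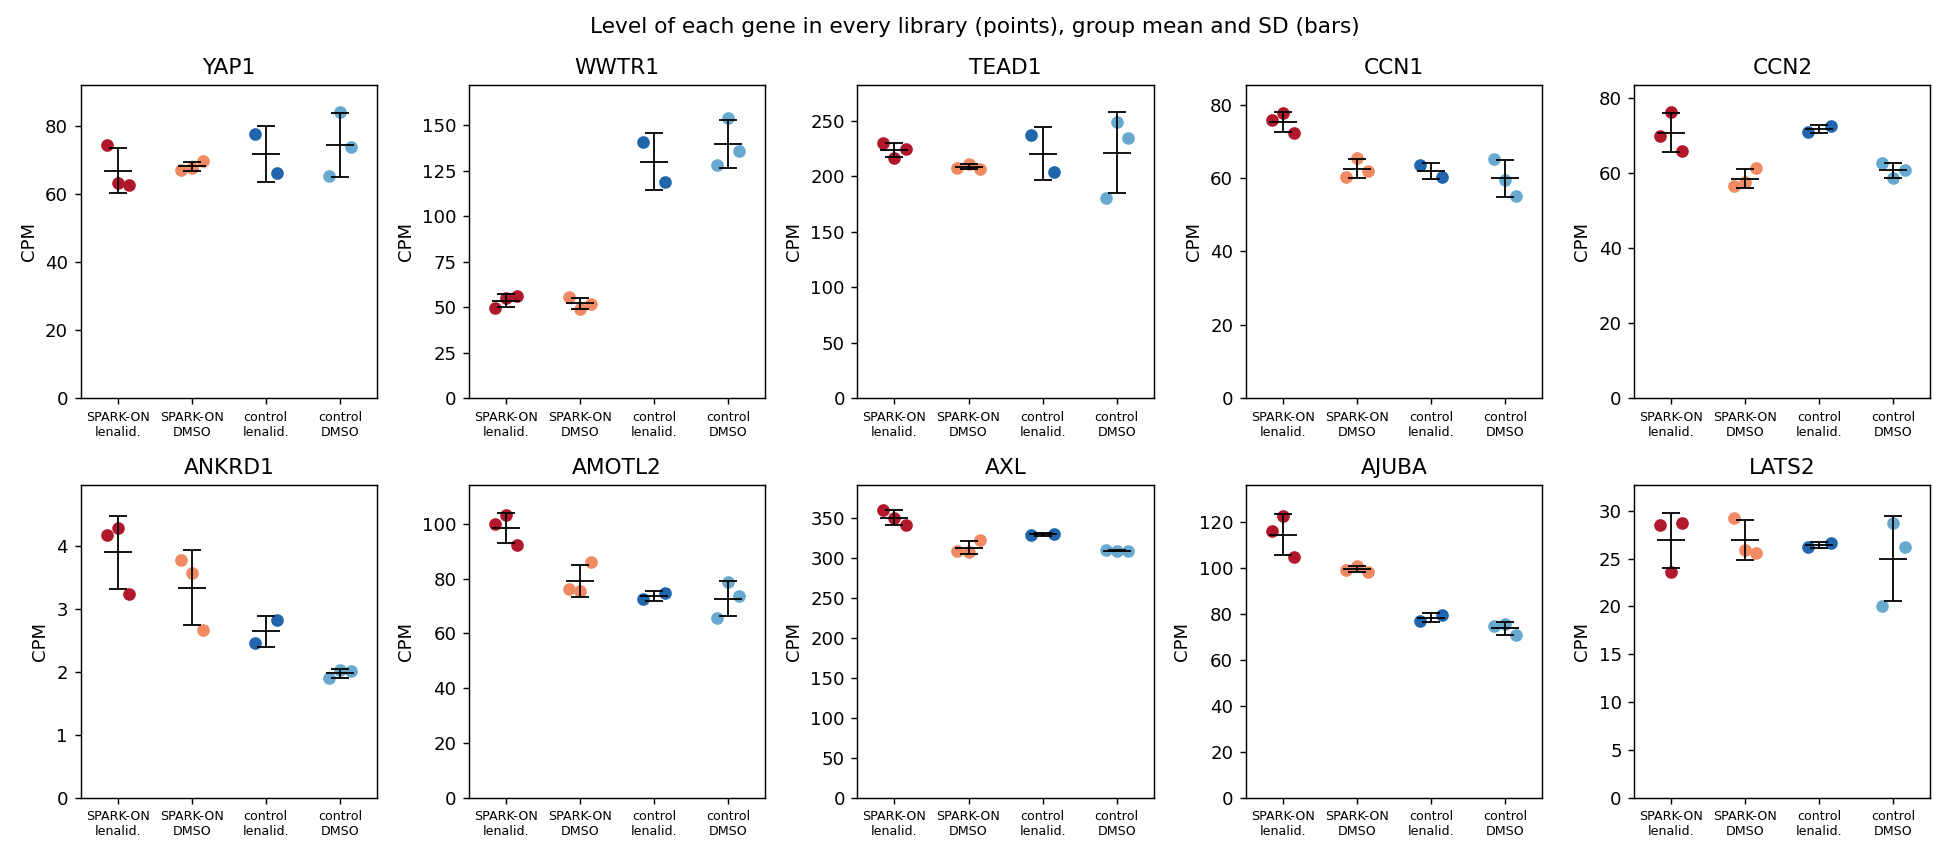
Level (CPM) of each of the 10 genes in every library of the 4 groups (points), with the group mean and SD (bars). WWTR1 lies near 50 CPM in all 6 SPARK-ON libraries and at 119 CPM or above in all 5 control libraries. TEAD1, CCN1, CCN2, AMOTL2, AXL and AJUBA are higher in every SPARK-ON lenalidomide library than in any SPARK-ON DMSO library. The same holds for 9.62% of all genes.

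Among the coactivators, WWTR1 fell in SPARK-ON cells relative to control cells, whichever treatment was compared, and YAP1 passed the test in neither comparison. WWTR1 (chromosome 3, 149517235 to 149736714, minus strand, GRCh38 by GENCODE 29) had 49.6, 55.0 and 55.9 CPM in SPARK-ON cells with lenalidomide, against 141 and 119 CPM in control cells with lenalidomide. In DMSO it had 55.4, 49.0 and 51.6 CPM in SPARK-ON cells, against 128, 154 and 136 CPM in control cells. The highest SPARK-ON library, at 55.9 CPM, lay far under the lowest control library, at 119 CPM. The level was 2.43-fold lower in SPARK-ON cells with lenalidomide (log2 change -1.28, SE 0.10, adjusted p = 1.31e-08) and 2.68-fold lower in DMSO (-1.42, SE 0.092, adjusted p = 6.35e-10), by edgeR's quasi-likelihood test with Benjamini-Hochberg adjustment over all 16056 genes. A gene is called here at an adjusted p below 0.05. The labels do not say whether replicates are separate cultures, so a p-value here speaks of the spread among the samples at hand, which may be technical. In RNA from whole cultures, fewer cells that express a gene and less RNA per cell cannot be told apart.

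YAP1 (chromosome 11, 102110461 to 102233423, plus strand) had 74.5, 63.4 and 62.7 CPM in SPARK-ON cells with lenalidomide, against 77.7 and 66.1 CPM in control cells with lenalidomide. In DMSO it had 67.1, 67.8 and 69.7 CPM in SPARK-ON cells, against 65.3, 84.1 and 74.0 CPM in control cells. The ranges overlapped in both treatments. The YAP1 change was -0.099 (normal 95% interval from the SE, -0.32 to 0.12) with lenalidomide and -0.13 (-0.32 to 0.068) in DMSO. Without control DMSO replicate 1, the library that stood apart on the third component, the DMSO change was -0.22 with an adjusted p of 0.0464 by the same edgeR test. That library had the lowest YAP1, TEAD1 and LATS2 levels of the 3 control DMSO libraries.

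Per kilobase of exon, the ratio of WWTR1 to YAP1 was 0.605 ± 0.093 in SPARK-ON cells with lenalidomide, 0.571 ± 0.041 in SPARK-ON cells in DMSO, 1.35 ± 0.0075 in control cells with lenalidomide and 1.40 ± 0.055 in control cells in DMSO (SD, n = 2 for control with lenalidomide and 3 elsewhere). YAP1 was thus the more abundant coactivator transcript in every SPARK-ON library and WWTR1 in every control library. Counted over the longest transcript, the mean ratios were 0.868 and 0.819 in SPARK-ON cells with lenalidomide and in DMSO, and 1.94 and 2.01 in control cells with lenalidomide and in DMSO. The sum of both coactivators per kilobase was 17.0 ± 0.65 in SPARK-ON cells with lenalidomide and 26.9 ± 3.2 in control cells with lenalidomide. Among DMSO libraries the sum averaged 17.0 ± 0.36 for the SPARK-ON line and 28.4 ± 3.1 for the control line. An antisense gene, WWTR1-AS1, shares 9.45% of the exonic bases of WWTR1, and the strand setting of the counting was not given in the sources used here. WWTR1-AS1 itself had at most 14 reads in a library, few beside those of WWTR1. Antisense genes also share 9.97% of the exonic bases of YAP1 and 8.34% of those of CCN2.

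**Figure D2:**
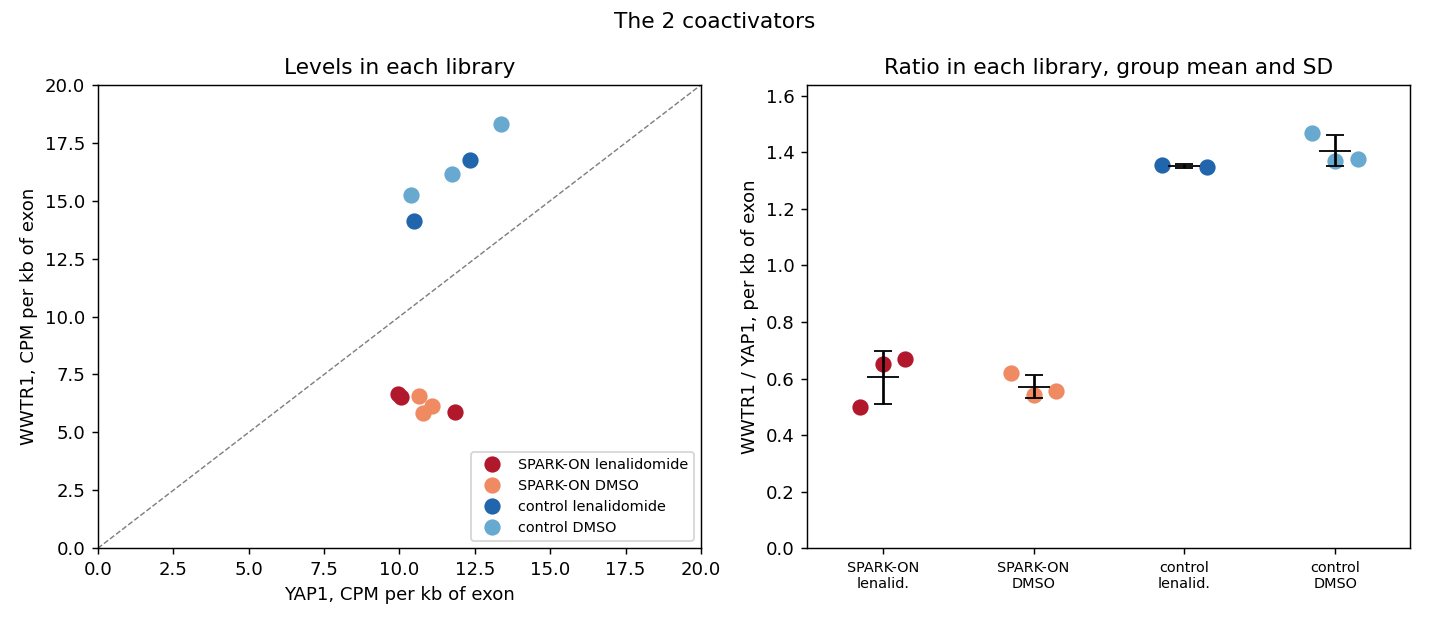
Left, WWTR1 against YAP1 in each library, both in CPM per kb of exon, with the line of equal levels dashed. Right, their ratio in each library (points) with the group mean and SD (bars): the 6 SPARK-ON libraries reach at most 0.668 and the 5 control libraries are at least 1.35.

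TEAD1, the DNA-binding partner (chromosome 11, 12674591 to 12944483, plus strand), had 229.8, 217 and 225 CPM in SPARK-ON cells with lenalidomide, against 237 and 203 CPM in control cells with lenalidomide. In DMSO TEAD1 had 207, 211 and 207 CPM in SPARK-ON cells, against 180.5, 249 and 235 CPM in control cells. The control libraries spread on both sides of the SPARK-ON libraries. TEAD1 passed the test in neither comparison with the 11 libraries, and without control DMSO replicate 1 it fell by 0.22 on the log2 scale in DMSO (adjusted p = 0.00792, edgeR). Of the 4 TEAD transcripts, TEAD1 made up 57.1% to 68.3% per kilobase in every library, so it was the most abundant TEAD throughout. Its share was 65.9% to 68.3% in SPARK-ON cells with lenalidomide and 61.7% to 64.6% in SPARK-ON cells in DMSO, which did not overlap. In control cells it was 57.3% to 63.9% with lenalidomide and 57.1% to 64.6% in DMSO, which overlapped. For the levels of single genes, 9.62% of all genes lay higher without overlap with lenalidomide in SPARK-ON cells. A change in the TEAD1 share was not tested.

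Of the 10 genes, 3 rose and 1 fell in SPARK-ON relative to control cells with lenalidomide, and 2 rose and 1 fell in DMSO. Over all genes tested, 39.4% were called with lenalidomide (19.7% higher and 19.7% lower) and 41.6% in DMSO (21.1% higher and 20.4% lower). The share of the 10 genes that was called was therefore near that of all genes. The 2 comparisons use different libraries. Groups did not overlap for 5 genes that were higher and 1 that was lower with lenalidomide, against 30.4% and 29.3% of all genes, and for 2 and 1 in DMSO, against 26.3% and 24.6% of all genes. The summed level of the mesenchymal markers, given above, was also lower in the SPARK-ON libraries, and VIM and CD44 made up most of it. VIM averaged 521 ± 18 CPM in SPARK-ON cells in DMSO and 1207 ± 138 CPM in control cells in DMSO, and CD44 500.1 ± 14 and 1185 ± 16 CPM. Other markers of the list had higher means in SPARK-ON cells in DMSO, with 124 ± 5.1 CPM for FN1 and 81.6 ± 7.8 CPM for NT5E, against 82.8 ± 23 and 31.0 ± 1.8 CPM in control cells in DMSO. The part of these markers in the differences was not tested.

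AJUBA, a LIM protein that can hold back the LATS kinases (chromosome 14, 22971174 to 22982642, minus strand), rose in SPARK-ON cells under both treatments. It had 116, 122 and 105 CPM in SPARK-ON cells with lenalidomide, against 76.8 and 79.6 CPM in control cells with lenalidomide. DMSO libraries had 98.9, 101 and 98.2 CPM in SPARK-ON cells, against 74.6, 75.6 and 70.6 CPM in control cells. Every SPARK-ON library lay above every control library. The level was 1.47-fold higher with lenalidomide (log2 change 0.55, SE 0.085, adjusted p = 4.67e-05) and 1.35-fold higher in DMSO (0.43, SE 0.075, adjusted p = 1.34e-04; edgeR).

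AMOTL2, an angiomotin family gene whose protein binds YAP (chromosome 3, 134355874 to 134375479, minus strand), rose in SPARK-ON cells where lenalidomide was present. It had 99.8, 103 and 92.2 CPM in SPARK-ON cells with lenalidomide, against 72.5 and 74.8 CPM in control cells with lenalidomide, with no overlap. The level was 1.34-fold higher (log2 change 0.42, SE 0.096, adjusted p = 0.0019, edgeR). In DMSO AMOTL2 had 76.3, 75.3 and 85.9 CPM in SPARK-ON cells, against 65.7, 78.6 and 73.6 CPM in control cells. These ranges overlapped, and the change in DMSO was 0.13 (95% interval -0.041 to 0.29).

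CCN1, a secreted matricellular protein once called CYR61 (chromosome 1, 85580761 to 85583962, plus strand), also rose in SPARK-ON cells with lenalidomide. It had 75.7, 77.6 and 72.2 CPM there, against 63.5 and 60.3 CPM in control cells with lenalidomide. The SPARK-ON libraries were all higher, 1.22-fold (log2 change 0.28, SE 0.092, adjusted p = 0.0206, edgeR). That call was lost without SPARK-ON lenalidomide replicate 1 (adjusted p = 0.0552), without SPARK-ON lenalidomide replicate 2 (0.0704), without control lenalidomide replicate 2 (0.130) and with no filter on low counts (0.0723). In DMSO CCN1 had 60.4, 65.5 and 61.9 CPM in SPARK-ON cells, against 65.2, 59.4 and 55.1 CPM in control cells, which overlapped (change 0.063, 95% interval -0.096 to 0.22).

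CCN2, the related secreted protein once called CTGF (chromosome 6, 131948176 to 131951373, minus strand), had 69.8, 76.3 and 66.0 CPM in SPARK-ON cells with lenalidomide, against 71.1 and 72.5 CPM in control cells with lenalidomide. In DMSO it had 56.5, 57.6 and 61.3 CPM in SPARK-ON cells, against 62.6, 58.7 and 60.8 CPM in control cells. The lines overlapped under both treatments, with changes of -0.017 (95% interval -0.19 to 0.15) and -0.053 (-0.21 to 0.10).

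ANKRD1, a titin-binding ankyrin repeat protein (chromosome 10, 90912096 to 90921276, minus strand), was the lowest of the 10 genes, with 22 to 70 reads in a library. It had 4.18, 4.28 and 3.24 CPM in SPARK-ON cells with lenalidomide, against 2.47 and 2.82 CPM in control cells with lenalidomide. In DMSO the levels were 3.78, 3.56 and 2.66 CPM in SPARK-ON cells, against 1.90, 2.02 and 2.01 CPM in control cells. The SPARK-ON libraries were higher under both treatments. The DMSO change was 0.75 (SE 0.24, adjusted p = 0.0167, edgeR), or 1.68-fold, and was lost without SPARK-ON DMSO replicate 1 (adjusted p = 0.0762) or replicate 2 (0.0576). The change with lenalidomide was 0.58 (SE 0.26, adjusted p = 0.0872, edgeR) and was called with library size alone as the scaling (adjusted p = 0.044).

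AXL, a receptor tyrosine kinase (chromosome 19, 41219203 to 41261766, plus strand), had 359, 349.7 and 340.2 CPM in SPARK-ON cells with lenalidomide, against 328 and 330.1 CPM in control cells with lenalidomide. In DMSO it had 309, 307 and 322 CPM in SPARK-ON cells, against 309, 309 and 308 CPM in control cells. The ranges were apart with lenalidomide and overlapped in DMSO, with changes of 0.089 (adjusted p = 0.322, edgeR; 0.0255 with library size alone) and 0.018 (adjusted p = 0.841, edgeR). LATS2, the kinase that phosphorylates the coactivators (chromosome 13, 20973032 to 21061547, minus strand), had 28.5, 23.5 and 28.7 CPM in SPARK-ON cells with lenalidomide, against 26.2 and 26.6 CPM in control cells with lenalidomide. In DMSO LATS2 had 29.3, 25.9 and 25.6 CPM in SPARK-ON cells, against 20.1, 28.7 and 26.2 CPM in control cells. LATS2 overlapped between the lines in both treatments, and it was 41.9% to 49.7% of the LATS1 and LATS2 transcripts per kilobase over the 11 libraries.

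**Figure D3:**
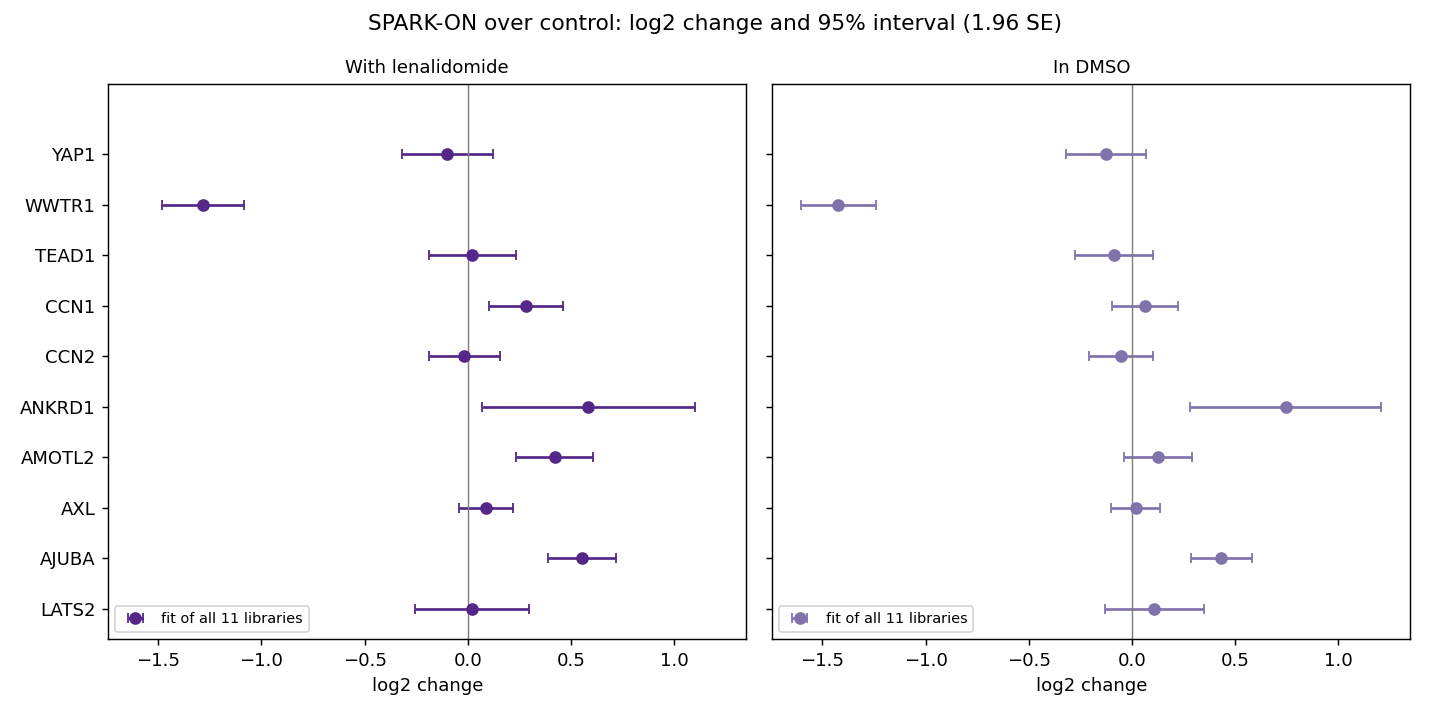
SPARK-ON over control: log2 change of each of the 10 genes with its 95% interval, with lenalidomide on the left and in DMSO on the right, from the fit of 11 libraries. WWTR1 stands alone far below 0 in both panels; AJUBA lies above 0 in both.

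Lenalidomide against DMSO within SPARK-ON cells is the contrast that the design sets up for n-Myc phase separation, and it also holds what the compound does by itself. CCN1, CCN2, AMOTL2, AXL and AJUBA were each higher in all 3 SPARK-ON lenalidomide libraries than in the highest of the SPARK-ON DMSO libraries. TEAD1, given below, was separated in the same way, as were 9.62% of all genes. For the 5 genes other than TEAD1 the fitted changes between the groups were 11.9% for AXL to 24.4% for AMOTL2. Whether they count as changed depends on the fit. In the fit of all 11 libraries 0 of the 10 genes were called by edgeR's test, with 5 at an unadjusted p below 0.05, all higher. Over all genes 0.0685% were called, and 5.36% had an unadjusted p below 0.05 (3.62% higher). DESeq2 and limma-voom on the 11 libraries also called 0 of the 10. Fitted on the 6 SPARK-ON libraries, the same 5 genes rose, against 2.60% of genes called either way and 1.79% higher. The 10 genes were chosen with earlier results of these data known, so this count is a description. The biological coefficient of variation, edgeR's name for the spread among replicates, was 4.71% in the fit of 6 libraries. It was 9.40% over the 11 libraries and 12.9% over the 5 control libraries. The labels do not say whether the SPARK-ON replicates are separate cultures, so their small spread may be technical.

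AMOTL2 had the largest of these changes. Its 99.8, 103 and 92.2 CPM in SPARK-ON cells with lenalidomide stood against 76.3, 75.3 and 85.9 CPM in SPARK-ON cells in DMSO. The log2 change was 0.32, with SE 0.085 and adjusted p = 0.37 in the fit of 11 libraries and SE 0.057 and adjusted p = 1.57e-04 in the fit of 6 (edgeR). It was called in the fit of 6 with any 1 library left out, with adjusted p from 4.60e-05 to 0.0125.

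The matricellular pair moved by nearly the same amount. CCN2 had 69.8, 76.3 and 66.0 CPM in SPARK-ON cells with lenalidomide, against 56.5, 57.6 and 61.3 CPM in SPARK-ON cells in DMSO (log2 change 0.28; adjusted p = 0.461 over 11 and 0.00409 over 6 libraries, edgeR). CCN1 had 75.7, 77.6 and 72.2 CPM with lenalidomide, against 60.4, 65.5 and 61.9 CPM in DMSO (log2 change 0.27; adjusted p = 0.578 over 11 and 0.00418 over 6 libraries, edgeR). In both genes the lowest lenalidomide library lay above the highest DMSO library.

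AJUBA and AXL moved less. AJUBA had 116, 122 and 105 CPM in SPARK-ON cells with lenalidomide, against 98.9, 101 and 98.2 CPM in SPARK-ON cells in DMSO (log2 change 0.21; adjusted p = 0.786 over 11 and 0.0125 over 6 libraries, edgeR). AXL had 359, 349.7 and 340.2 CPM with lenalidomide, against 309, 307 and 322 CPM in DMSO (log2 change 0.16; adjusted p = 0.812 over 11 and 0.0166 over 6 libraries, edgeR). The smallest library, SPARK-ON lenalidomide replicate 3, had the lowest CCN1, CCN2, AMOTL2, AXL and AJUBA levels of its group. Without it the fit of 6 called the same 5 genes. The fit of 6 called 3 without SPARK-ON lenalidomide replicate 1 (CCN1, CCN2 and AMOTL2) and AMOTL2 alone without SPARK-ON lenalidomide replicate 2 or without SPARK-ON DMSO replicate 1. DESeq2 on the 6 libraries called AMOTL2, AXL and AJUBA.

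TEAD1 had 229.8, 217 and 225 CPM in SPARK-ON cells with lenalidomide, against 207, 211 and 207 CPM in SPARK-ON cells in DMSO. The libraries did not overlap, but the change of 0.098 in the fit of 6 had an adjusted p of 0.274 (edgeR). ANKRD1 had 4.18, 4.28 and 3.24 CPM with lenalidomide, against 3.78, 3.56 and 2.66 CPM in DMSO, with overlap and a wide interval (change in the fit of 11 libraries 0.26, 95% interval -0.19 to 0.71). YAP1, WWTR1 and LATS2 overlapped between treatments. Their changes in SPARK-ON cells, again over 11 libraries, were -0.025 (95% interval -0.22 to 0.17), 0.037 (-0.15 to 0.22) and -0.0089 (-0.26 to 0.24).

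Taken as a list, 8 of the 10 genes had a positive change with lenalidomide in SPARK-ON cells, against 51.7% of all genes, and the median was 0.19 against 0.0065 for all genes. Groups did not overlap, with lenalidomide higher, for 6 of the 10, against 9.62% of all genes. A related pattern over TGF-beta and YAP genes was known when the 10 genes were chosen, so these counts are a description.

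Lenalidomide against DMSO in control cells shows what the compound does without SPARK-ON. In the fit of 11 libraries 0 of the 10 genes were called by edgeR, 1 had an unadjusted p below 0.05, and DESeq2 and limma-voom called 0. Over all genes 0.0436% were called and 4.82% had an unadjusted p below 0.05. In the fit of the 5 control libraries edgeR called 0 of the 10, with 0 at an unadjusted p below 0.05, against 0% and 2.01% of all genes. CCN2 had 71.1 and 72.5 CPM in control cells with lenalidomide, against 62.6, 58.7 and 60.8 CPM in control cells in DMSO. The libraries did not overlap and the change was 0.24 (SE 0.087, adjusted p = 0.898, edgeR), beside 0.28 in SPARK-ON cells.

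AMOTL2 had 72.5 and 74.8 CPM in control cells with lenalidomide, against 65.7, 78.6 and 73.6 CPM in control cells in DMSO, and its change was 0.020 (95% interval -0.17 to 0.21). CCN1 had 63.5 and 60.3 CPM with lenalidomide, against 65.2, 59.4 and 55.1 CPM in DMSO (change 0.049, 95% interval -0.13 to 0.23). Both overlapped between treatments. AXL, AJUBA and ANKRD1 lay above the highest control DMSO library in both control lenalidomide libraries. Their changes were 0.092 (95% interval -0.040 to 0.22), 0.088 (-0.077 to 0.25) and 0.42 (-0.10 to 0.95). Such separation, with CCN2 in 4 of the 10 genes, was seen in 7.69% of all genes. YAP1, WWTR1, TEAD1 and LATS2 overlapped, with changes of -0.051, -0.10, -0.0076 and 0.079.

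**Figure D4:**
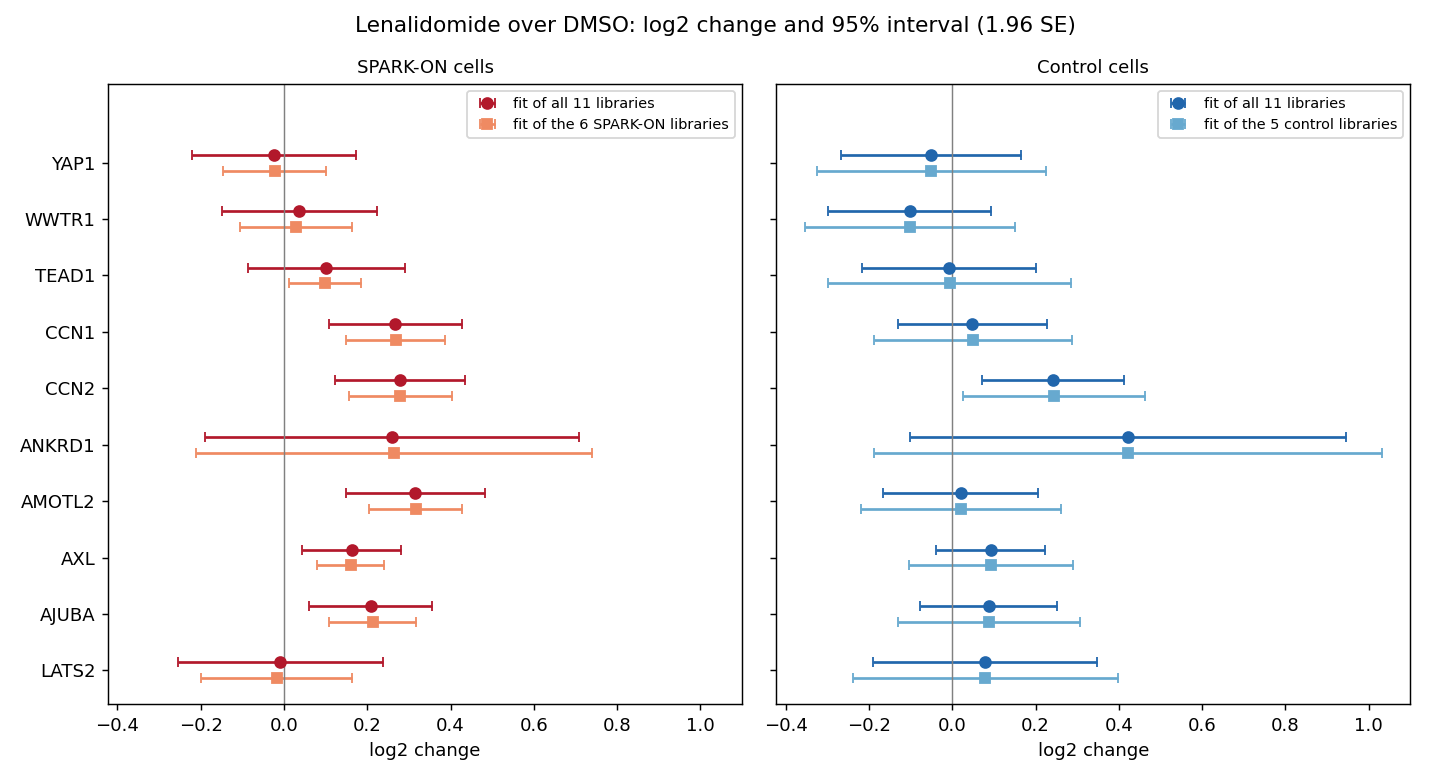
Lenalidomide over DMSO: log2 change and 95% interval of each of the 10 genes in SPARK-ON cells (left) and control cells (right). Circles are the fit of all 11 libraries and squares the fit of the line's own libraries, with intervals that are wider in control cells for all 10 genes and narrower in SPARK-ON cells for all but ANKRD1.

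The difference between the lines in their response, SPARK-ON minus control, was tested directly. By edgeR 0 of the 10 genes were called, DESeq2 and limma-voom called 0 as well, and 0 of all genes were called (0%), with 4.17% at an unadjusted p below 0.05. AMOTL2 was the only 1 of the 10 at an unadjusted p below 0.05. Its response was larger in SPARK-ON cells by 0.29 (95% interval 0.045 to 0.55, adjusted p = 1, edgeR). For CCN1 the difference was 0.22 (-0.021 to 0.46), for AJUBA 0.12 (-0.10 to 0.34), for AXL 0.070 (-0.11 to 0.25) and for CCN2 0.036 (-0.20 to 0.27). For ANKRD1 it was -0.16 (-0.85 to 0.53). The intervals for CCN1, AJUBA, AXL, CCN2 and ANKRD1 include 0, and a p that misses the threshold does not show that the lines responded alike.

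Other genes of the pathway were described in 3 lists. The list of Hippo genes numbered 22, of which 21 were tested. It holds the kinases, their activators and the angiomotins, which bind YAP. It also holds LIMD1 and WTIP, the AJUBA relatives, which can hold back the LATS kinases, so its median covers genes of opposite roles. With lenalidomide 3 of the 21 rose and 4 fell in SPARK-ON relative to control cells, with a median change of -0.010 against 0.015 for all genes. In DMSO 2 rose and 4 fell, with a median of -0.025 against 0.011. Of all genes, 39.4% were called with lenalidomide and 41.6% in DMSO. The angiomotins AMOT and AMOTL1, relatives of AMOTL2, rose under both treatments. AMOT averaged 53.7 ± 1.6 CPM in SPARK-ON cells with lenalidomide and 27.96 ± 0.20 CPM in control cells with lenalidomide (log2 change 0.94), and 44.9 ± 2.0 CPM in SPARK-ON cells and 27.0 ± 5.9 CPM in control cells in DMSO (0.74). AMOTL1 had changes of 0.77 with lenalidomide and 0.81 in DMSO.

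The genes of that list that fell most in SPARK-ON cells were WTIP, a LIM protein of the AJUBA family, NF2, the merlin tumour suppressor that activates LATS, and the kinase MAP4K4. WTIP averaged 10.4 ± 0.63 CPM in SPARK-ON cells with lenalidomide and 22.8 ± 3.9 CPM in control cells with lenalidomide (log2 change -1.13), and 8.16 ± 0.35 CPM in SPARK-ON cells and 22.4 ± 3.0 CPM in control cells in DMSO (-1.46). It thus ran opposite to its relative AJUBA. NF2 had changes of -0.65 with lenalidomide and -0.71 in DMSO, and MAP4K4 -0.68 and -0.67. The largest adjusted p of these 5 genes in either comparison was 5.81e-04, for AMOTL1 with lenalidomide (edgeR).

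Of the TEAD paralogs and vestigial-like cofactors, which compete with YAP for the TEADs, 6 of 7 were tested, and VGLL1 had no read in any library. TEAD2 alone was called, 1 of 6 under each treatment, against 39.4% of all genes with lenalidomide and 41.6% in DMSO. It fell in SPARK-ON cells, by 0.64 on the log2 scale with lenalidomide (adjusted p = 5.56e-04, edgeR) and by 0.33 in DMSO (adjusted p = 0.0229, edgeR). TEAD2 averaged 12.2 ± 0.43 CPM in SPARK-ON cells with lenalidomide and 19.0 ± 0.79 CPM in control cells with lenalidomide. The list's median was -0.049 with lenalidomide and 0.056 in DMSO, against 0.015 and 0.011 for all genes.

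The 16 other genes of a YAP and TAZ target signature, all tested, moved both ways between the lines. PTPN14 is counted both here and in the Hippo list. With lenalidomide 8 rose and 4 fell in SPARK-ON relative to control cells (median 0.28, against 0.015 for all genes), and in DMSO 7 rose and 3 fell (median 0.13, against 0.011). Of all genes, 19.7% rose and 19.7% fell with lenalidomide, and 21.1% rose and 20.4% fell in DMSO. FOXF2 had the largest changes, 4.20 with lenalidomide and 4.37 in DMSO, and passed the filter only through SPARK-ON libraries. It had 1 to 17 reads in SPARK-ON libraries with lenalidomide and 6 to 32 in DMSO. Control libraries had 0 to 1 and 0 to 3, so its changes rest on counts near the floor. In the fit of the DMSO groups alone FOXF2 was not tested, and of 15 targets 6 rose and 3 fell. CCDC80, a secreted matrix protein, averaged 45.4 ± 1.3 CPM in SPARK-ON cells with lenalidomide and 15.7 ± 2.9 CPM in control cells with lenalidomide (log2 change 1.52), and rose by 1.43 in DMSO. NT5E, the ectonucleotidase CD73, which is also among the mesenchymal markers, rose by 1.25 and 1.40. GADD45A, a growth arrest and DNA damage gene, rose by 1.16 and 0.86. FJX1, a Golgi kinase of the Fat and Dachsous branch, fell by 0.41 and 0.68, and the growth factor gene TGFB2 fell by 0.47 and 0.72. Adjusted p was at most 0.0153 for these 5 genes (edgeR, TGFB2 with lenalidomide).

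With lenalidomide against DMSO in SPARK-ON cells, edgeR over 11 libraries called 0 of the 16 targets. It also called 0 of the 21 Hippo genes and 0 of the 6 TEAD and vestigial-like genes. At an unadjusted p below 0.05 were 5, 2 and 0 of them. Of all genes 0.0685% were called and 5.36% had an unadjusted p below 0.05. In the fit of the 6 SPARK-ON libraries 4 targets rose: CRIM1 (log2 change 0.23, adjusted p = 0.00196), GADD45A (0.34, 0.0096), CCDC80 (0.28, 0.0197) and ASAP1 (0.16, 0.0374). AMOT rose in the Hippo list (0.25, adjusted p = 0.0279, edgeR), as AMOTL2 did among the 10 genes. In that fit 1.79% of all genes rose and 2.60% were called either way. The targets had a median of 0.13 in the fit of 11, with 12 of 16 positive. The TEAD and vestigial-like genes had a median of -0.14, with 5 of 6 negative, and the Hippo genes 0.021. Over all genes the median was 0.0065, and 51.7% were positive. VGLL2, of the vestigial-like genes, had few reads in SPARK-ON libraries, 5 to 16 with lenalidomide and 10 to 24 in DMSO. In control cells 0 genes of the 3 lists were called, against 0.0436% of all genes, and the median over all genes was 0. FJX1 had the smallest p among the targets there, with a change of -0.41 (adjusted p = 0.237, edgeR), and the medians of the 3 lists were 0.030 for targets, -0.0051 for Hippo genes and 0.023 for TEAD and vestigial-like genes.

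**Figure D5:**
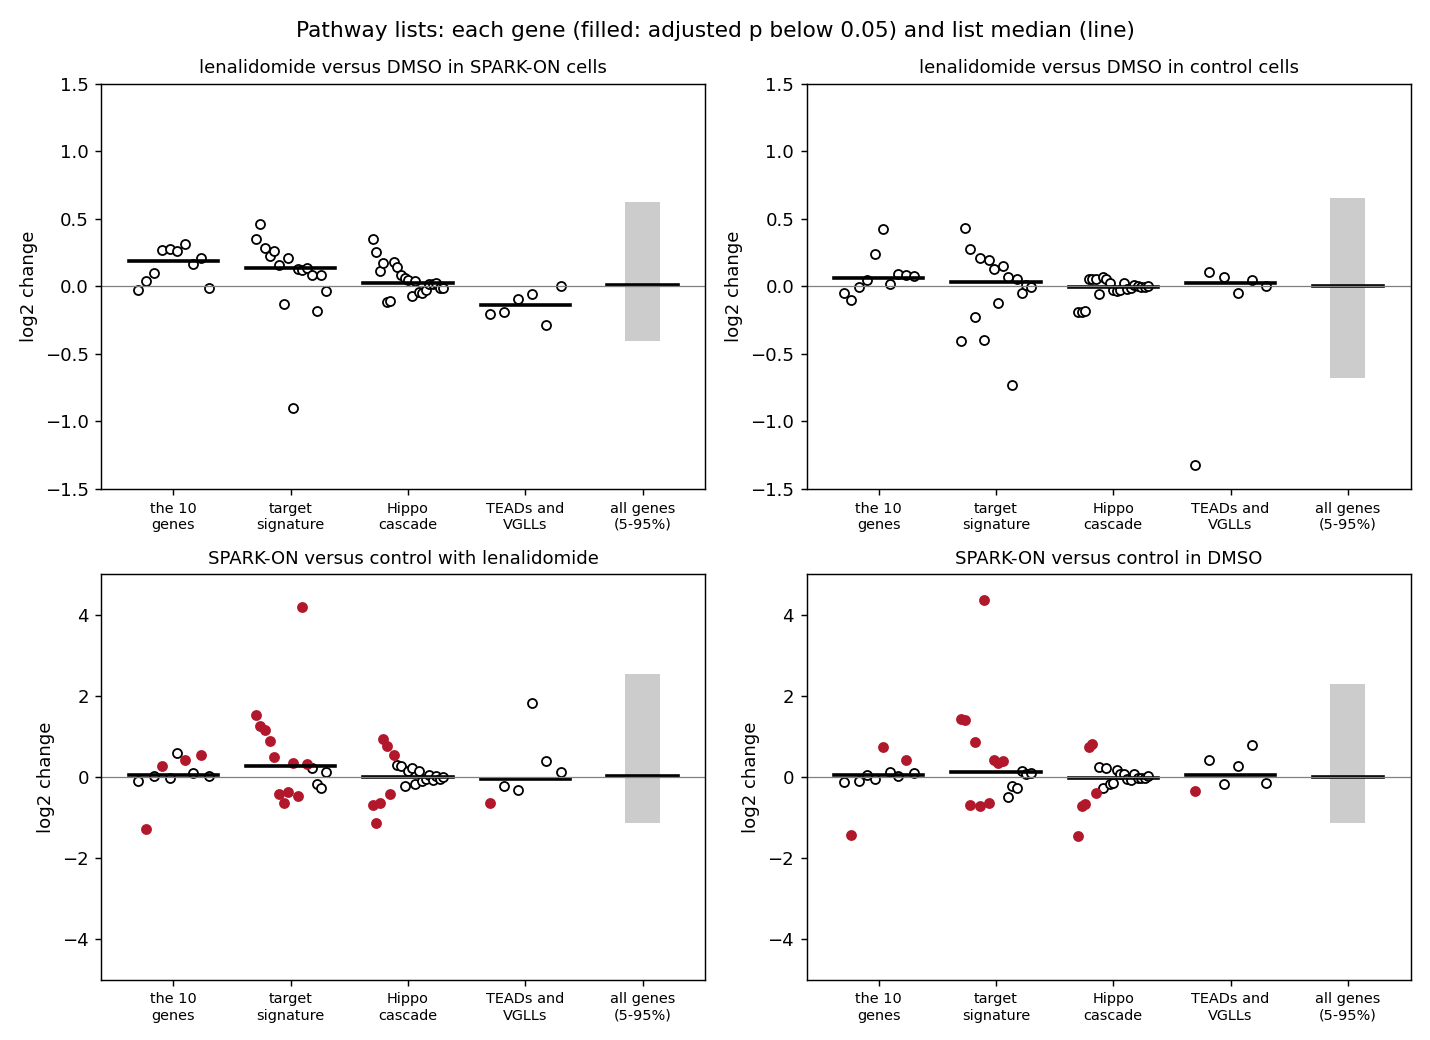
Log2 change of each tested gene of the 10 genes and the 3 lists (points, filled where the adjusted p is below 0.05) with the list median (line), beside the 5th to 95th percentile of all genes (grey bar). The top row shows lenalidomide over DMSO for each line, with no filled point in the fit of 11 libraries; the bottom row, on a wider axis, shows SPARK-ON over control with lenalidomide and in DMSO, with calls on both sides of 0.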

How the data were processed

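The authors deposited whole-number raw counts per gene, without normalization. Per the submitters' processing notes, reads were handled with FastQC, fastp, HTSeq and edgeR on hg38. Versions, the aligner, the annotation release and the strand setting are not given in the sources used here. Columns were matched to samples by their labels. The other 3 columns matched no label and were not used, so planned comparisons with baseline SH-EP cells were not made.

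Counts were fitted in R 4.3.3 with edgeR 4.0.16 (filterByExpr with a minimum count of 10, TMM scaling, glmQLFit over the 4 groups with 7 residual degrees of freedom, two-sided glmQLFTest, Benjamini-Hochberg adjustment over all genes tested, threshold 0.05). SE is the log2 change over the root of F. The 10 genes, the lists and the tests were chosen with earlier results of these data known. The lists come from general knowledge. Named list genes are those that passed, or the 5 with the smallest p where more passed, or up to 3 where none did; from those the text shows a part. CPM values were computed from the deposited counts. Lengths are merged exons of GENCODE 29, or its longest transcript. The fit over the 4 groups was tested on simulated data, with changes larger than any lenalidomide change of the 10 genes. The fit of 6 libraries was not tested in this way. Alternatives were omission of each library, a replicate block, fits of the compared groups only, limma-voom 3.58.1, DESeq2 1.42.0 and other scalings and filters. Variants of the fit of 6 libraries and a block nested in the line were added after seeing the data. Figures used matplotlib 3.10.9.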

Additional observations from a re-analysis of the deposited data

How the results depend on the processing

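Counts of the 10 genes called kept within 1.5 times of the reported count except as follows. For lenalidomide in SPARK-ON cells the fit of only the groups compared called 5 in place of 0, and so it did with RLE scaling, library size alone, no filter, a minimum count of 30, limma-voom and the replicate block (5 each). With DESeq2 it called 3, and with each library left out 1 to 5. For SPARK-ON against control in DMSO, leaving out a library gave 2 to 5 in place of 3. Replicate numbers showed no pairing in SPARK-ON cells, where same-numbered libraries correlated, in their deviations from group means, at -0.0028 to 0.015. Same-numbered control libraries correlated at -0.18 and -0.13. This cannot decide on pairing there, because the deviations of the 2 control lenalidomide libraries mirror each other. The replicate block over 11 libraries called 0, 0, 4, 3 and 0 genes, the counts reported for lenalidomide in SPARK-ON and in control cells, for the lines with lenalidomide and in DMSO, and for the difference in response.

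WWTR1 and AJUBA kept direction and call in both line comparisons under every alternative run. Directions turned only for changes not called in the fit of 11 libraries. In control cells with lenalidomide, TEAD1 turned to 0.00067 with limma-voom, 0.011 with the replicate block and 0.050 with the block nested within line, and CCN1 to -0.0073 with the nested block. Scaling by library size alone gave a median over all genes of 0.12 with lenalidomide and 0.10 in DMSO in the line comparisons, against 0.015 and 0.011 with TMM. It called 4045 of 6441 and 4262 of 6809 genes higher, against 3165 of 6334 and 3395 of 6675, and turned TEAD1 and CCN2 in DMSO (0.0017 and 0.038) and YAP1 and CCN2 with lenalidomide (0.0047 and 0.088). CCN2 with lenalidomide turned to 0.0051 with a minimum count of 30. With each library left out, lenalidomide changes in SPARK-ON cells spanned -0.11 to 0.016 for YAP1, -0.0038 to 0.091 for WWTR1 and -0.062 to 0.085 for LATS2. In control cells they spanned -0.17 to 0.054 for YAP1, -0.23 to 0.0078 for WWTR1, -0.14 to 0.091 for TEAD1, -0.0093 to 0.11 for CCN1, -0.052 to 0.079 for AMOTL2 and -0.060 to 0.19 for LATS2. SPARK-ON against control spanned, in DMSO, -0.22 to 0.0049 for TEAD1, -0.0020 to 0.031 for AXL and -0.036 to 0.21 for LATS2. With lenalidomide it spanned -0.22 to 0.020 for YAP1, -0.089 to 0.14 for TEAD1, -0.077 to 0.027 for CCN2 and -0.032 to 0.11 for LATS2. The difference in response spanned -0.087 to 0.15 for YAP1, -0.025 to 0.080 for CCN2 and -0.19 to 0.054 for LATS2. The cause was not tested.

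Precision is limited by the 22 to 70 reads of ANKRD1, by the 2 libraries of control cells with lenalidomide and by the spread among control libraries, whose biological coefficient of variation was 12.9%.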
